A study of Mus musculus with 12 samples.

Results

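The genes described here are those of the circadian clock, and 10 were named: Arntl, Clock, Npas2, Per1, Per2, Per3, Cry1, Cry2, Dbp and Tef. They were found by symbol among array probe sets annotated to exactly 1 gene, and 9 of the 10 were measured, out of 19938 genes in all. Npas2, a partner of ARNTL that can stand in for CLOCK, was not matched to such a probe set and has no value here. Each of the 9 measured genes was read by a single probe set, so no choice between probe sets was needed.

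The clock is a feedback loop of transcription that runs in nearly every cell type, fibroblasts and adipocytes included. The proteins ARNTL and CLOCK bind E-box sequences and activate the Per and Cry genes, whose products then block ARNTL and CLOCK until they are degraded. ARNTL and CLOCK also drive Dbp, which with TEF belongs to a family of activators that bind D-box sequences, and the nuclear receptors of the REV-ERB and ROR families repress and activate Arntl in turn. In cultured cells a pulse of serum, glucocorticoid or agents that raise cyclic AMP sets the phase of this loop, and Per1 is among the genes that such pulses induce directly.

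Total RNA was profiled on expression arrays in 12 samples of embryonic fibroblasts, 3 in each of 4 groups: D1D2KO differentiated, D1D2KO undifferentiated, WT differentiated and WT undifferentiated. All came from C57BL6 mice at embryonic day 14 and were grown in medium with 10% serum. D1D2KO cells are deficient in DGAT1 and DGAT2, which complete the synthesis of triacylglycerol. Differentiated cells had been converted to adipocytes, starting 2 days after confluence, with troglitazone (15 µM), insulin (5 µg/ml), isobutylmethylxanthine (500 µM), which raises cyclic AMP, and the glucocorticoid dexamethasone (1 µM) for 2 to 3 days. Insulin and troglitazone alone followed for 2 days, and then plain medium until harvest. The undifferentiated groups have no such treatment in their labels. The time of day, the time since the last change of medium and the length of the final culture were not given in the sources used here, and the phase of the clock in each sample is therefore unknown. The embryo or culture behind each sample was not given either, and the p-values cover only the spread among the samples, which may be technical.

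Values are log2 array signals, in which a difference of 1 is a 2-fold difference. Differences are given with the standard error (SE) of a linear model over all 12 arrays (limma), and calls were made where the p adjusted over all 19938 genes (Benjamini-Hochberg) was under 0.05. Across genes, samples within a group correlated with Pearson's r of 0.993 to 0.997. Dgat1 lay between 7.75 and 8.26 in D1D2KO differentiated samples against 9.33 and 9.53 in WT differentiated ones, and between 5.56 and 5.66 in D1D2KO undifferentiated samples against 6.93 and 6.98 in WT undifferentiated ones. Dgat2 lay between 8.37 and 8.66 against 9.86 and 10.53 after differentiation, and between 5.44 and 5.51 against 5.94 and 5.98 before it, again with D1D2KO given ahead of WT. Every D1D2KO sample was thus below every WT sample of its state for both targeted genes, but before differentiation Dgat2 lost its call (adjusted p = 0.0345) whichever of the 6 samples was left out.

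**Figure D1:**
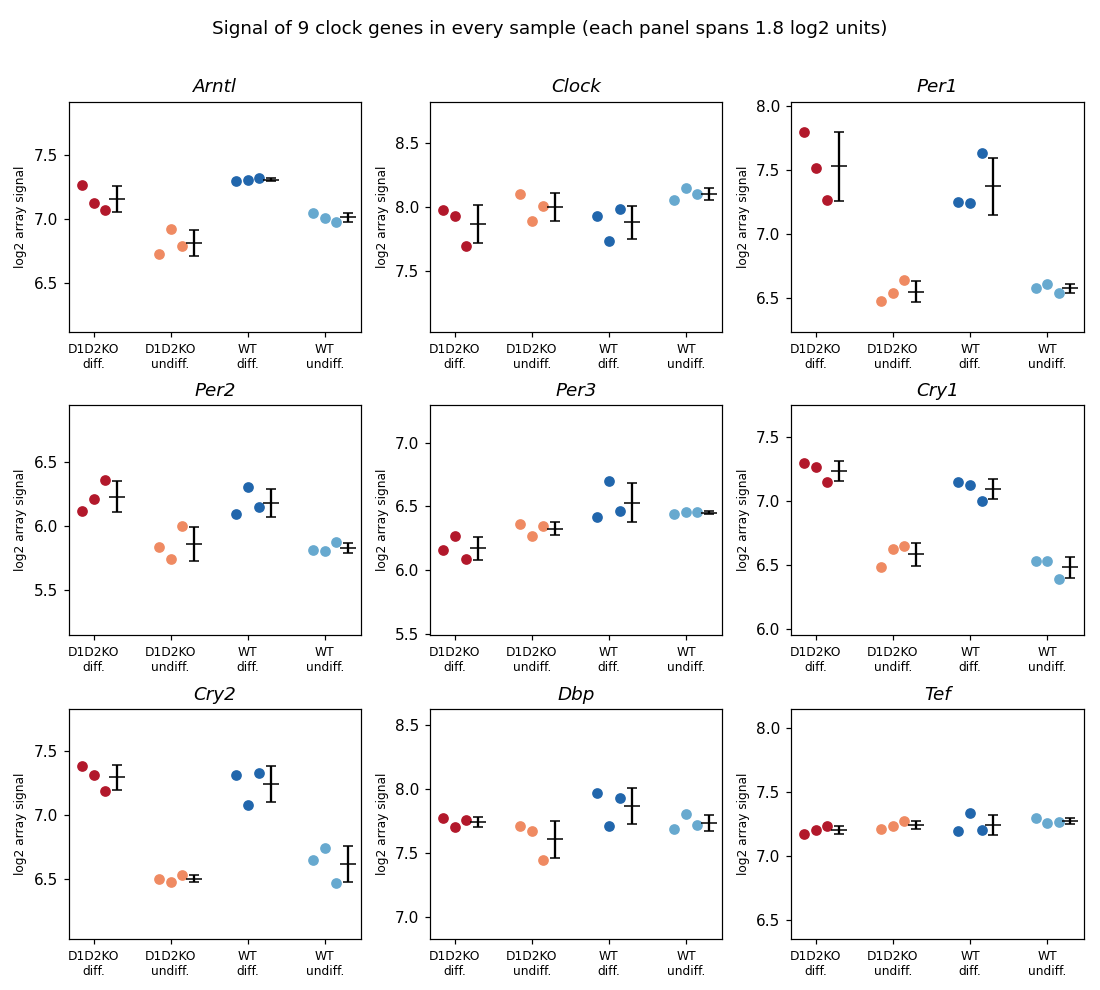
Log2 array signal of the 9 measured clock genes in each of the 12 samples, with a point for each sample and, to its right, the group mean and SD (n = 3). Per1, Cry1, Cry2, Per2 and Arntl lie higher in differentiated than in undifferentiated samples of both genotypes, whereas Tef stays between 7.17 and 7.33 in all 12.

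Of the 9 measured clock genes 5 were higher in differentiated than in undifferentiated cells of each genotype, and the same 5: Per1, Cry1, Cry2, Per2 and Arntl. Rises and falls with differentiation are here differences between these states. Conversion, the treatment and the time in culture cannot be told apart in this design. The rises were moderate, from 1.27-fold for Arntl to 1.97-fold for Per1 in D1D2KO cells and from 1.23-fold to 1.74-fold, for the same genes, in WT cells. None of the 9 was called lower. Clock, Per3, Dbp and Tef did not pass the test in either genotype. Over all genes, 36.7% were called in D1D2KO differentiation (15.4% higher and 21.2% lower) and 34.1% in WT differentiation (14.7% higher and 19.4% lower). The median difference of the 9 genes was 0.34 in D1D2KO and 0.30 in WT cells, beside medians of 0.0062 and 0.015 over all genes.

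The negative limb of the loop is described with the sequences next to its genes, because Per and Cry genes are the textbook targets of E-box and D-box factors and 4 of the 5 genes that rose belong to it. The 250 bases before the annotated start are shown for Per1, Cry1 and Cry2, which had the 3 largest rises in each genotype, and for Per3, which did not pass, from RefSeq on GRCm38.p6. They are Per1 at chr11:69098699-69098948 (plus strand; the more distal of its 2 windows), Cry1 at chr10:85185055-85185304 (minus strand), Cry2 at chr2:92434070-92434319 (minus strand) and Per3 at chr4:151044666-151044915 (minus strand), each written from 5′ to 3′ along the gene. Capitals mark an E-box (CACGTG, which reads the same on both strands) in Per1 and Cry1 and D-boxes (TTATGTAA, searched on both strands) in Per3.
Per1: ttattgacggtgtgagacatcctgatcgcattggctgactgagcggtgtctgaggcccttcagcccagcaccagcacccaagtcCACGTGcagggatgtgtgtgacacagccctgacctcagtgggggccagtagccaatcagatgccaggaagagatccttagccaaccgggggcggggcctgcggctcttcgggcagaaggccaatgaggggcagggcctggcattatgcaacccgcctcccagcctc
Cry1: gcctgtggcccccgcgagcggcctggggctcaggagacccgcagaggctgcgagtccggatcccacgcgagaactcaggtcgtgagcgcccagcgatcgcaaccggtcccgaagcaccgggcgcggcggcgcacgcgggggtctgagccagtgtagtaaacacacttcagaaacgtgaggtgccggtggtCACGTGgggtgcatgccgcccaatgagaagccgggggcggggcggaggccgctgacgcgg
Cry2: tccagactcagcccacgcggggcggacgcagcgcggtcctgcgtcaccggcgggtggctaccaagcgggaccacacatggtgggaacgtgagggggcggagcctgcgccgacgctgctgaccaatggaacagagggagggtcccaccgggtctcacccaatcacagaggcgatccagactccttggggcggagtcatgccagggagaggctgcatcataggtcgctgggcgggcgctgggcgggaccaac
Per3: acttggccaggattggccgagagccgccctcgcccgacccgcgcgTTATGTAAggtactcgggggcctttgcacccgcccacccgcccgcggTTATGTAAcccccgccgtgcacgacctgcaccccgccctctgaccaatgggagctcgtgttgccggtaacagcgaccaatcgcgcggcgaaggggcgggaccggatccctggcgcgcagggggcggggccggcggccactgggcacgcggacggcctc

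In these letters Per1 held an E-box that began 166 bases before the start and Cry1 one that began 60 bases before it, Per3 held 2 D-boxes, and Cry2 held neither motif. The search covered 14 windows of the 9 clock genes matched in that table, Npas2 included, since a gene with several annotated starts has several windows. Per2 was not matched. An E-box lay in 4 of the 14 windows, those named and both windows of Tef, and a D-box in 1, while 6.02% and 0.819% of the 32851 windows of all genes held them. The cyclic AMP response element TGACGTCA and the element TAGGTCA of REV-ERB and ROR factors, searched on both strands, matched 0 of the 14 windows and 1.55% and 2.23% of all windows. Only exact matches within the windows were counted, so 0 matches does not show that a gene lacks such elements in other forms or beyond the annotated start. No window held both an E-box and a D-box. Matches lay in windows of genes that rose (Per1 and Cry1) and of genes that did not pass (Per3 and Tef).

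Per1, whose product is a repressor of the loop, rose most. Its signal was 7.80, 7.52 and 7.27 in D1D2KO differentiated samples, against 6.48, 6.54 and 6.64 in D1D2KO undifferentiated samples. In WT cells it was 7.25, 7.24 and 7.63 in differentiated samples, against 6.58, 6.61 and 6.54 in undifferentiated ones. The states did not overlap in either genotype, and the differentiated samples were the more scattered, with a range of 0.536 in the D1D2KO group. The difference was 0.98 (SE 0.12; adjusted p = 5.39e-06) in D1D2KO and 0.80 (SE 0.12; adjusted p = 6.75e-05) in WT cells. Its residual SD over the 12 samples, 0.180, was at the 88.5th percentile of all genes, the highest place among the 9.

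Cry1 and Cry2 encode the cryptochromes, the stronger repressors of ARNTL and CLOCK. Cry1 was at 7.29, 7.26 and 7.15 in D1D2KO differentiated samples, against 6.48, 6.62 and 6.65 in undifferentiated ones, a difference of 0.65 (SE 0.08; adjusted p = 5.75e-06). WT differentiated samples had 7.15, 7.12 and 7.001, against 6.53, 6.53 and 6.39 in undifferentiated samples, a difference of 0.61 (SE 0.08; adjusted p = 1.64e-05). The 2 states were thus apart by more than the within-group range of Cry1, which was at most 0.167. Cry2 was at 7.38, 7.32 and 7.19 in D1D2KO differentiated samples, against 6.50, 6.48 and 6.53 in undifferentiated ones, a difference of 0.79 (SE 0.09; adjusted p = 2.30e-06). In WT it was at 7.31, 7.08 and 7.33 in differentiated samples, against 6.65, 6.74 and 6.47 in undifferentiated samples, a difference of 0.62 (SE 0.09; adjusted p = 4.64e-05). Both cryptochrome genes were higher in every differentiated sample than in any undifferentiated sample of either genotype.

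Per2, whose protein carries the cryptochromes into the repressor complex, rose by less. It was at 6.12, 6.21 and 6.36 in D1D2KO differentiated samples, against 5.84, 5.74 and 6.003 in undifferentiated ones, and at 6.09, 6.31 and 6.15 in WT differentiated samples, against 5.81, 5.81 and 5.87 in undifferentiated ones. The differences were 0.37 (SE 0.09; adjusted p = 0.00365) and 0.35 (SE 0.09; adjusted p = 0.00603), again with no overlap between states. Per3, the family member that is dispensable for the rhythm itself, had a difference of -0.16 (SE 0.09; adjusted p = 0.183) in D1D2KO cells and of 0.08 (SE 0.09; adjusted p = 0.551) in WT cells. Neither passed the test, although all 3 D1D2KO differentiated samples (6.16, 6.27 and 6.09) lay below the undifferentiated ones (6.36, 6.27 and 6.35), the nearest pair by less than the rounding.

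On the positive limb Arntl, the activator without which the loop stops, rose in both genotypes. It was at 7.27, 7.12 and 7.08 in D1D2KO differentiated samples, against 6.73, 6.92 and 6.79 in undifferentiated ones, a difference of 0.34 (SE 0.08; adjusted p = 0.00231). In WT it was at 7.30, 7.31 and 7.32 in differentiated samples, against 7.05, 7.01 and 6.98 in undifferentiated samples, a difference of 0.30 (SE 0.08; adjusted p = 0.00784). Clock, which encodes its partner, had negative differences, of -0.13 (SE 0.09; adjusted p = 0.320) in D1D2KO and -0.22 (SE 0.09; adjusted p = 0.0853) in WT cells. The WT differentiated samples of Clock (7.93, 7.73 and 7.98) all lay below the undifferentiated ones (8.06, 8.15 and 8.10), and the D1D2KO groups overlapped. The WT difference passed when only genes above the median signal were tested (adjusted p = 0.0465).

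The output activators Dbp and Tef gave no called difference. Dbp, a direct ARNTL and CLOCK target with a large daily amplitude in many tissues, was at 7.77, 7.70 and 7.75 in D1D2KO differentiated samples, against 7.71, 7.67 and 7.44 in undifferentiated ones. In WT cells it was at 7.97, 7.71 and 7.93 in differentiated samples, against 7.68, 7.80 and 7.72 in undifferentiated samples. The difference was 0.14 (SE 0.09) in both genotypes, with 95% intervals of -0.058 to 0.329 in each, so a rise of the size seen for Per1 or Cry2 lay outside the interval. Tef differed by -0.04 (SE 0.07) in D1D2KO and -0.03 (SE 0.07) in WT cells, with intervals of -0.193 to 0.116 and -0.185 to 0.124. Its residual SD of 0.0458 was at the 0.963rd percentile of all genes, so it was among the least variable signals of the array.

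**Figure D2:**
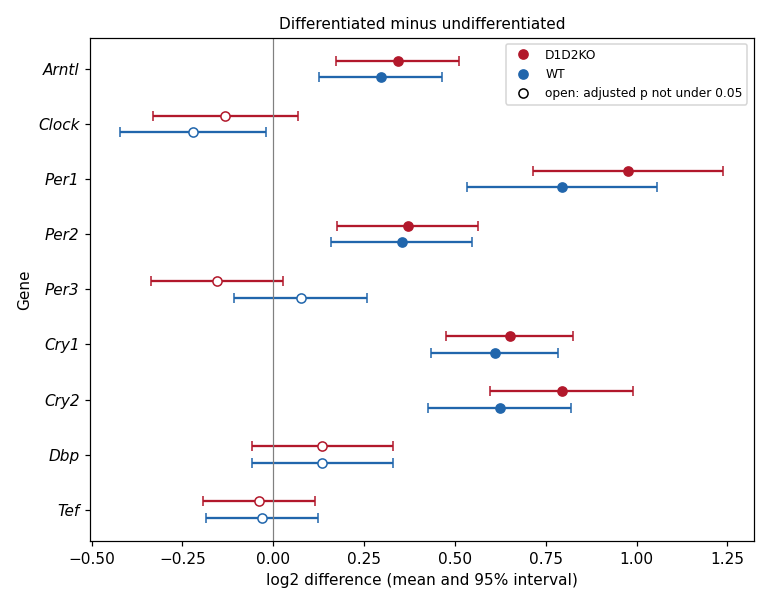
Log2 difference between differentiated and undifferentiated samples for each clock gene in D1D2KO and WT cells (n = 3 per group), with 95% intervals from the limma fit and open points where the adjusted p was not under 0.05. Filled points of Per1, Cry2, Cry1, Per2 and Arntl lie to the right of 0 in both genotypes, and the 2 intervals of each gene overlap.

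Counted by sample, 5 of the 9 genes had every D1D2KO differentiated sample above every undifferentiated one, and 1 (Per3) had every one below, where 21.5% and 26.6% of all genes did so. In WT cells 5 lay wholly above and 1 (Clock) wholly below, beside 19.9% and 24.0% of all genes. Signals of cell type markers also differed between the states. The marker counts below stand beside 15.4% of all genes called higher and 21.2% called lower in D1D2KO cells. In WT cells these shares were 14.7% and 19.4%. Of 9 measured adipocyte markers all 9 were higher in differentiated cells of both genotypes. Their mean log2 signal ran from 10.58 to 10.80 in D1D2KO differentiated samples, against 5.67 to 5.74 in undifferentiated ones, and from 10.21 to 10.37 in WT differentiated samples, against 5.85 to 5.93 in undifferentiated ones. Fibroblast markers were lower in 9 of 10 cases in D1D2KO (10.16 to 10.29, against 11.10 to 11.13) and in 8 of 10 in WT (10.55 to 10.60, against 11.10 to 11.14).

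Macrophage markers were lower in 5 of 6 cases in each genotype, with mean signals of 8.34 to 8.43 in D1D2KO differentiated samples, against 9.61 to 9.70 in undifferentiated ones, and of 8.44 to 8.61 in WT differentiated samples, against 9.73 to 9.77 in undifferentiated ones. Neural and glial markers were lower in 4 of 5 cases in D1D2KO (5.48 to 5.55, against 6.38 to 6.44) and in 5 of 5 in WT (5.45 to 5.56, against 6.23 to 6.38), or in 3 without WT undifferentiated replicate 1. The lowest array signal of any probe set was 1.15 and no detection calls were used, so a low marker signal cannot show whether the marker was expressed. Endothelial markers were lower in 2 of 4 cases in each genotype, with mean signals of 4.73 to 4.77 in D1D2KO differentiated samples, against 5.24 to 5.31 in undifferentiated ones, and of 4.61 to 4.76 in WT differentiated samples, against 5.09 to 5.15 in undifferentiated ones. These were the receptor genes Tek, which fell by 1.04 and 0.78 in D1D2KO and WT cells, and Kdr, which fell by 0.95 and 0.97 (marker genes named here were chosen after their values were seen). Of 4 skeletal muscle markers 1 was lower in D1D2KO, the intermediate filament gene Des (-0.76, SE 0.13; adjusted p = 0.000115). In WT cells 0 of the 4 passed limma's test and 0 had an unadjusted p under 0.05, although 1 was called higher without WT differentiated replicate 1. In bulk samples fewer cells of a type and less RNA per cell cannot be told apart, and the part of these shifts in the clock differences was not tested.

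The genotypes were compared next within each state, which asks whether cells deficient in both enzymes held the clock genes at other levels. In undifferentiated cells 0 of the 9 genes passed limma's test and 1, Arntl, had an unadjusted p under 0.05, beside 8.02% of all genes called, 4.40% higher and 3.62% lower. Under quantile normalization 369 of 838 calls over all genes were higher in D1D2KO, where the deposited values gave 878 of 1600. In differentiated cells 1 gene, Per3, was called lower in D1D2KO, and no other of the 9 had an unadjusted p under 0.05. There 13.7% of all genes were called, 7.42% lower and 6.25% higher, so 1 of 9 is near the background.

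Per3 was at 6.16, 6.27 and 6.09 in D1D2KO differentiated samples, against 6.42, 6.70 and 6.47 in WT differentiated samples. All 3 D1D2KO samples lay below all 3 WT samples, with a difference of -0.36 (SE 0.09; adjusted p = 0.0137), which is 78.2% of the WT signal. WT differentiated replicate 2 was the highest sample of the gene, and without it the difference was -0.27 and the adjusted p 0.0617. With only the 2 groups in the fit the adjusted p was 0.0671. In undifferentiated cells it was at 6.36, 6.27 and 6.35 in D1D2KO, against 6.44, 6.46 and 6.45 in WT. These groups did not overlap either, but the difference of -0.12 (SE 0.09; adjusted p = 0.356) did not pass.

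Marker signals were also compared between the genotypes in the state in which Per3 was called. There 6.25% of all genes were called higher and 7.42% lower in D1D2KO. Of 9 adipocyte markers 6 were higher in D1D2KO differentiated cells, though 2 without WT differentiated replicate 2 and 3 without D1D2KO differentiated replicate 1 or 2. Of 10 fibroblast markers 5 were lower, or 3 when any sample but D1D2KO differentiated replicate 3 or WT differentiated replicate 3 was left out. Their sample means, given above, did not overlap between the genotypes. Macrophage markers were lower in 1 of 6 cases, and 1 of 5 neural and glial markers was lower, or 0 without D1D2KO differentiated replicate 1 or 2 or WT differentiated replicate 2 or 3. As counts, single calls in lists this short cannot be told from the share of all genes called lower. The muscle marker Des was at 6.86, 6.97 and 6.70 in D1D2KO differentiated samples, against 9.17, 9.38 and 9.18 in WT differentiated ones, a difference of -2.40 (SE 0.13; adjusted p = 3.43e-09) that was called under every alternative run. Another muscle marker, Ckm, was higher in D1D2KO (0.29; adjusted p = 0.040), a call that ended without any D1D2KO differentiated sample, D1D2KO undifferentiated replicate 2 or WT differentiated replicate 2 or 3. The muscle markers Myog (0.33; adjusted p = 0.0824) and Myod1 (0.24; adjusted p = 0.139) also had positive differences but did not pass. Of 4 endothelial markers Pecam1 (0.13), Cdh5 (-0.04) and Kdr (-0.13) did not pass, and Tek was higher in D1D2KO (0.33; adjusted p = 0.0443). The call of Tek ended without any 1 of 9 samples, all but D1D2KO undifferentiated replicate 1, WT differentiated replicate 3 and WT undifferentiated replicate 3. The part of these differences in the lower Per3 signal was not tested.

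Arntl was the other gene with separate genotypes. It was lower in every D1D2KO undifferentiated sample (6.73, 6.92 and 6.79) than in any WT undifferentiated sample (7.05, 7.01 and 6.98), and lower in every D1D2KO differentiated sample (7.27, 7.12 and 7.08) than in any WT differentiated one (7.30, 7.31 and 7.32). The differences were -0.20 (SE 0.08; adjusted p = 0.120) and -0.15 (SE 0.08; adjusted p = 0.197), and neither passed the test. With array weights the undifferentiated difference passed (-0.21, adjusted p = 0.0422). Arntl and Per3 were the only 2 of the 9 genes whose genotypes were separate in either state, both lower in D1D2KO, where 14.2% of all genes lay wholly lower and 16.7% wholly higher in differentiated cells, and 19.6% and 19.7% in undifferentiated cells. A count of 2 in 9 is thus close to the background.

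**Figure D3:**
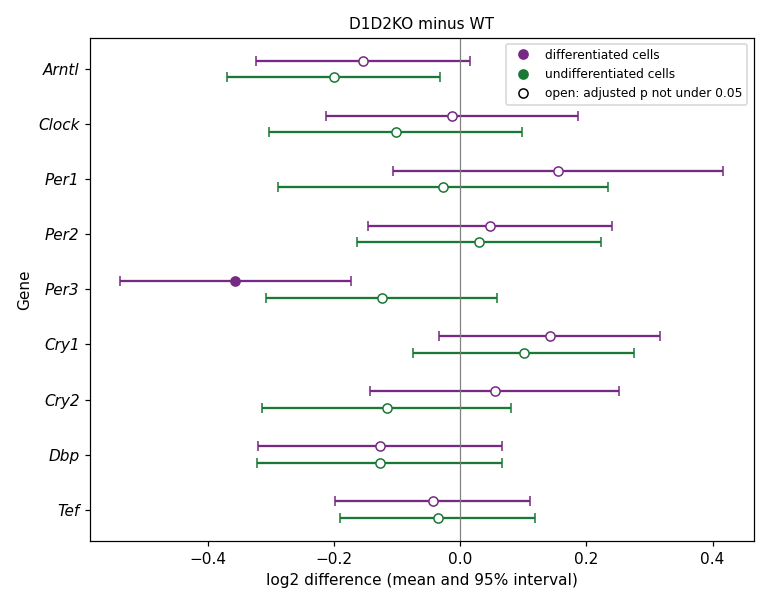
Log2 difference between D1D2KO and WT samples for each clock gene in differentiated and undifferentiated cells (n = 3 per group), with 95% intervals from the limma fit and open points where the adjusted p was not under 0.05. The only filled point is Per3 in differentiated cells, at -0.36.

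The difference between the D1D2KO and WT responses to differentiation was tested directly. By limma 0 of 9 clock genes passed and 0 had an unadjusted p under 0.05, beside 1.46% of all genes called, 0.747% with the higher and 0.712% with the lower response in D1D2KO. The largest was that of Per3, at -0.23 (SE 0.12; adjusted p = 0.517), with a 95% interval of -0.489 to 0.027. Those of Per1 and Cry2 were 0.18 (SE 0.17; interval -0.188 to 0.552) and 0.17 (SE 0.13; interval -0.108 to 0.450). The lower Per3 signal of D1D2KO cells is therefore not shown to depend on state.

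Other genes of the loop were examined in lists by role. Among 11 measured nuclear receptors and repressors of the clock, differentiation raised 4 and lowered 2 in D1D2KO cells and raised 5 and lowered 2 in WT cells. The median difference of the list was 0.15 in D1D2KO and 0.03 in WT. Over all genes 15.4% were called higher and 21.2% lower in D1D2KO, and 14.7% and 19.4% in WT cells. Nfil3, the repressor that competes with DBP and TEF for D-boxes, was at 8.30, 8.29 and 8.27 in D1D2KO differentiated samples, against 6.74, 6.80 and 6.71 in undifferentiated ones, a 2.89-fold rise (1.53, SE 0.08; adjusted p = 5.52e-11). In WT it rose 2.58-fold (1.36, SE 0.08). Bhlhe40, a repressor that binds E-boxes, rose 3.14-fold in D1D2KO (1.65, SE 0.15; adjusted p = 7.46e-08) and 2.06-fold in WT cells (1.04, SE 0.15; adjusted p = 2.26e-05).

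Its close relative Bhlhe41 fell in both genotypes, by 0.80 (SE 0.12) in D1D2KO and by 0.88 (SE 0.12) in WT cells. Nr1d2, which encodes the repressor REV-ERBβ, was at 7.18, 7.20 and 7.29 in D1D2KO differentiated samples, against 8.21, 8.14 and 8.11 in undifferentiated ones, and at 7.51, 7.62 and 7.49 in WT differentiated samples, against 8.24, 8.16 and 8.39 in undifferentiated ones. It fell by 0.93 (SE 0.08; adjusted p = 6.12e-08) in D1D2KO and by 0.72 (SE 0.08; adjusted p = 2.00e-06) in WT. Nr1d1, which encodes REV-ERBα, gave -0.08 (SE 0.08; adjusted p = 0.528) and -0.06 (SE 0.08; adjusted p = 0.634) and did not pass, nor did the CLOCK-binding repressor gene Cipc (0.15 and 0.03). Chosen after their values were seen, the activator Rora rose by 0.77 and 0.49 and the repressor Ciart by 0.79 and 0.70 in D1D2KO and WT cells, and Arntl2, a paralog of Arntl, had differences of 0.22 (adjusted p = 0.102) and 0.49 (adjusted p = 0.00104), of which the D1D2KO one passed without D1D2KO differentiated replicate 1.

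**Figure D4:**
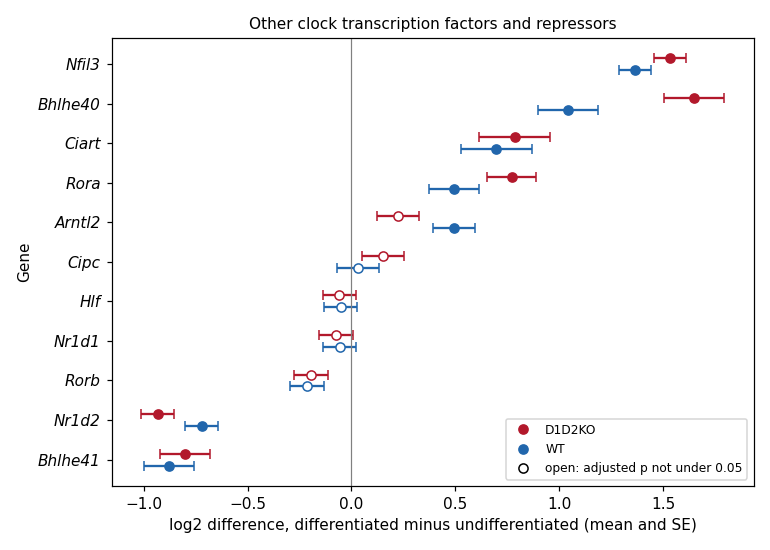
Log2 difference between differentiated and undifferentiated samples, with SE, for 11 further clock transcription factors and repressors in D1D2KO and WT cells (n = 3 per group), with open points where the adjusted p was not under 0.05. Nfil3 and Bhlhe40 lie farthest to the right, and Nr1d2 and Bhlhe41 farthest to the left, in both genotypes.

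Between the genotypes 3.62% of all genes were called lower in D1D2KO in undifferentiated and 7.42% in differentiated cells. This list gave calls for 3 genes, all lower in D1D2KO, though 1 gene was called higher in differentiated cells without D1D2KO differentiated replicate 3. In undifferentiated cells 1 gene was called, or 2 without D1D2KO differentiated replicate 3 or WT differentiated replicate 1 or 2, and 3 with array weights. In undifferentiated cells Bhlhe40 was at 6.73, 6.85 and 6.43 in D1D2KO, against 7.53, 7.57 and 7.31 in WT, a difference of -0.80 (SE 0.15; adjusted p = 0.00417), and after differentiation it gave -0.20 (adjusted p = 0.365). Its difference in response of 0.61 (SE 0.21) did not pass (adjusted p = 0.201). In undifferentiated cells 1 of 9 adipocyte markers was higher and 2 were lower in D1D2KO, with none higher without D1D2KO undifferentiated replicate 1 or 3. The share of all genes called higher there was 4.4%. Of 6 macrophage markers 1 was lower, and of 10 fibroblast markers 0 were called by limma and 0 had an unadjusted p under 0.05. Des differed by -1.48 there (adjusted p = 1.85e-06), the endothelial marker Tek by 0.58 (adjusted p = 0.0032) and the muscle marker Myog by 0.43 (adjusted p = 0.0455). The endothelial markers Pecam1 (0.11), Cdh5 (-0.02) and Kdr (-0.15) did not pass in undifferentiated cells. Nor did the muscle markers Myod1 (0.35; adjusted p = 0.0588) and Ckm (0.25; adjusted p = 0.0884), so Des was the only muscle marker with a negative difference. The call of Myog ended without any undifferentiated sample but WT undifferentiated replicate 3, and without WT differentiated replicate 3. The part of these marker differences in that of Bhlhe40 was not tested. Nr1d2 was lower in D1D2KO differentiated cells, with a difference of -0.32 (SE 0.08; adjusted p = 0.0168), a call that ended without WT differentiated replicate 2 or D1D2KO differentiated replicate 1 or 2 (adjusted p up to 0.0735 over the alternatives). Arntl2 differed by -0.32 there (adjusted p = 0.0451), and the call ended without any 1 of 10 samples, all but WT differentiated replicate 3 and D1D2KO differentiated replicate 2.

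Among genes for the kinases, ubiquitin ligases and partners of clock proteins 11 were measured. Of these 2 rose and 5 fell in D1D2KO cells, where 15.4% of all genes were called higher and 21.2% lower, and 1 rose and 3 fell in WT cells, where 14.7% were called higher and 19.4% lower. The medians were -0.15 and -0.13. The D1D2KO counts were 1 or 2 higher and 3 to 5 lower without any 1 of the 3 D1D2KO undifferentiated samples or D1D2KO differentiated replicate 1 or 3. Usp2, a deubiquitinase of clock proteins, rose by 0.39 (SE 0.08) in D1D2KO and by 0.56 (SE 0.08) in WT. The RNA-binding PER partner Sfpq fell by 0.48 in D1D2KO cells and had a difference of -0.20 in WT cells that did not pass (adjusted p = 0.111; it passed without WT differentiated replicate 2). The ligase adaptor Ddb1 fell by 0.40 and 0.38 in D1D2KO and WT cells. The F-box gene Fbxw11 fell by 0.29 and 0.40, and its D1D2KO call ended without any 1 of 4 samples, the 3 D1D2KO undifferentiated ones and D1D2KO differentiated replicate 3. The PER kinase genes Csnk1d (-0.10 and -0.01) and Gsk3b (-0.15 and -0.13) did not pass, though Gsk3b passed in D1D2KO cells with array weights (adjusted p = 0.0144). Another kinase gene, Csnk1e, named after its values were seen, was called lower in D1D2KO cells (-0.29, SE 0.10; adjusted p = 0.0277). In WT cells Csnk1e did not pass (-0.14; adjusted p = 0.311), and it was not followed singly under the alternatives. Sfpq was the only gene of the list called between the genotypes, at -0.36 (adjusted p = 0.0193) in differentiated cells, which ended without D1D2KO differentiated replicate 1 or WT differentiated replicate 2. Over all genes 13.7% were called between the genotypes in differentiated and 8.02% in undifferentiated cells.

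Genes with known clock control included the largest rises near the loop, but also falls. Several are also adipocyte genes, and Pparg is 1 of the adipocyte markers counted above. Of 9 measured, 6 rose and 2 fell in D1D2KO and 6 rose and 1 fell in WT cells (2 without WT differentiated replicate 2), with medians of 1.56 and 0.93. Over all genes 15.4% were called higher and 21.2% lower in D1D2KO, and 14.7% and 19.4% in WT cells. The adipogenic receptor Pparg rose by 4.10 and 3.97, the phosphatidate phosphatase Lpin1 by 3.19 and 2.78, the haem synthesis enzyme Alas1 by 2.51 and 2.07 and the NAD synthesis enzyme Nampt by 2.55 and 2.09 (SE 0.10 to 0.15), in D1D2KO and WT cells. Among genes that fell, named after their values were seen, Wee1 differed by -0.62 (adjusted p = 2.00e-05) in D1D2KO and -0.47 (adjusted p = 0.000413) in WT cells. Tspan4 fell in D1D2KO (-0.46; adjusted p = 0.00239) and did not pass in WT cells (-0.02; adjusted p = 0.916). The deacetylase Sirt1 did not pass (-0.22 and -0.21), but both its differences passed without WT differentiated replicate 2, and the D1D2KO one with the replicate block within genotype (adjusted p = 0.0496). Between the genotypes, the cell cycle kinase Wee1 was lower in D1D2KO, with differences of -0.50 (SE 0.09; adjusted p = 0.00141) in differentiated and -0.36 (SE 0.09; adjusted p = 0.0233) in undifferentiated cells. The call in undifferentiated cells ended without D1D2KO undifferentiated replicate 1 or 3 or WT undifferentiated replicate 1 or 2. In differentiated cells the tetraspanin Tspan4 was also lower (-0.54, SE 0.11; adjusted p = 0.0041) and the coactivator Ppargc1a was higher (0.62, SE 0.13; adjusted p = 0.0056).

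Genes that answer glucocorticoid and cyclic AMP were listed because the treatment contained dexamethasone and isobutylmethylxanthine. Of 10 glucocorticoid-responsive genes 8 rose and 2 fell in D1D2KO and 6 rose and 1 fell in WT cells, with medians of 0.93 and 0.95. Over all genes 15.4% were called higher and 21.2% lower in D1D2KO, and 14.7% and 19.4% in WT cells. The kinase gene Pdk4 rose by 2.59 and 2.63, the transcription factor Zbtb16 by 2.37 and 2.21, the FK506-binding gene Fkbp5 by 1.67 and 1.42 and the metallothionein Mt2 by 1.502 and 1.413. Among genes that fell, named after their values were seen, Sgk1 differed by -0.66 (adjusted p = 8.56e-05) in D1D2KO and -0.42 (adjusted p = 0.0053) in WT cells. Errfi1 fell in D1D2KO (-0.35; adjusted p = 0.00623) and did not pass in WT cells (0.0089; adjusted p = 0.956). Between the genotypes 7.42% of all genes were called lower in D1D2KO in differentiated and 3.62% in undifferentiated cells. The calls of this list were all lower in D1D2KO. They were Errfi1 (-0.82), Sgk1 (-0.64), Mt2 (-0.54) and Mt1 (-0.33) in differentiated cells and Mt2 (-0.63), Errfi1 (-0.46) and Sgk1 (-0.40) in undifferentiated cells. Of these, Mt1 lost its call without D1D2KO differentiated replicate 3 or WT differentiated replicate 2. In undifferentiated cells Errfi1 lost its call without D1D2KO undifferentiated replicate 3 or WT undifferentiated replicate 2, and Sgk1 without any undifferentiated sample but WT undifferentiated replicate 3.

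The 8 cyclic AMP-responsive genes did not move together. In D1D2KO cells 2 rose and 2 fell, and in WT cells 4 rose and 3 fell, with medians of -0.02 and 0.22. Over all genes 15.4% were called higher and 21.2% lower in D1D2KO, and 14.7% and 19.4% in WT cells. The phosphodiesterase gene Pde4d rose by 0.80 and 0.55 and the transcription factor Crem by 0.49 and 0.41, while the nuclear receptor Nr4a1 fell by 0.71 and 0.64, in D1D2KO and WT cells. The kinase gene Sik1 rose by 0.48 in WT cells and had a difference of 0.15 (adjusted p = 0.117) in D1D2KO cells. The D1D2KO difference passed with quantile normalization or array weights (adjusted p down to 0.0253). Its difference between responses did not pass (-0.33; adjusted p = 0.146). The immediate early gene Fos did not pass (-0.09 and 0.12). Between the genotypes 8.02% of all genes were called in undifferentiated and 13.7% in differentiated cells. Of this list 0 genes passed limma's test, with 2 at an unadjusted p under 0.05 in undifferentiated and 1 in differentiated cells. In differentiated cells 1 was called lower without WT differentiated replicate 1, and in undifferentiated cells 1 was called higher with array weights or quantile normalization.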

How the data were processed

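The authors' deposited table held log2 array signals for 35556 probe sets in 12 samples. The base is inferred from the values, and the scanning, summary and normalization steps were not given in the sources used here; no detection calls were used, and the number of arrays limits the precision. The titles gave each sample's group and replicate number. Gene names are those of GEO's platform annotation: 21789 had 1 gene, 1621 several and 12146 none, and only the first kind was used, with the highest-mean probe set for genes with several. No low-signal filter was applied. All 12 arrays entered 1 limma 3.58.1 model (R 4.3.3, lmFit, eBayes) with 4 group means, 5 two-sided contrasts and Benjamini-Hochberg adjustment over 19938 genes. On simulated data it recovered 28% of changes of 0.5 in the difference between responses, and 83 to 87% in the other contrasts. The 95% intervals use the moderated SE.

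Members and lists were chosen with earlier results of these data known. All measured members were named; in each other list the 4 called genes with the largest change in either differentiation contrast, up to 2 uncalled ones with the highest signal and every gene called between the genotypes. A rule for genes of like profile applied to members whose group means spanned at least 1, and no member did. Same-numbered samples deviated together (every correlation above 0.1) only between D1D2KO differentiated and undifferentiated samples (0.101 to 0.176, against -0.147 to 0.0522 for other pairs), so the number may pair those samples. Single same-numbered pairs of other groups reached 0.184. The main model held no block for the number, which entered only as the replicate block among the alternatives. Alternatives were median centring, quantile normalization, a signal filter, mean or all probe sets, trended and robust eBayes, array weights, only the groups compared, the replicate block and leaving out each sample. Promoters came from RefSeq on GRCm38.p6.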

Additional observations from a re-analysis of the deposited data

Results flagged for a closer look

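The targeted gene Dgat2 had a called difference between the D1D2KO and WT responses to differentiation, at -1.20 (SE 0.18; limma adjusted p = 0.00271), with rises of 3.07 in D1D2KO and 4.27 in WT cells. So did the muscle marker Des, at -0.915 (SE 0.18; adjusted p = 0.0154), with differences of -0.76 in D1D2KO and 0.16 in WT cells, and its call ended when all probe sets were tested (adjusted p = 0.116). Of 9 adipocyte markers 3 also had such a call, with the higher response in D1D2KO (2 to 4 under the alternatives). Named after their values were seen, they were Fabp4 (1.45; adjusted p = 0.000452), Adipoq (1.38; adjusted p = 0.000501) and Retn (0.62; adjusted p = 0.0484). Of 10 fibroblast markers 1, Thy1, had the lower response (-0.72; adjusted p = 0.0158). The shares over all genes were 0.747% higher and 0.712% lower. None of the 9 measured clock genes had such a call.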

How the results depend on the processing

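The 5 rises in each genotype (Per1, Cry1, Cry2, Per2 and Arntl) kept their direction and call in all 218 values recomputed under the alternatives, with a highest adjusted p of 0.0292. Per2 lay below the median signal, so the filter left 4 rises in D1D2KO and 4 in WT among the genes it tested, and Clock passed as lower in WT. With the replicate number as a block, within genotype or across all groups, 5 members were called in each genotype's differentiation, and the block changed no member's call. The count for D1D2KO against WT in differentiated cells, 1 (Per3), was 0 with only the 2 groups compared and 0 to 1 over the samples left out in turn. That in undifferentiated cells was 1 (Arntl) with array weights. The causes were not tested. Over all genes, the calls between undifferentiated D1D2KO and WT cells numbered 1600, or 838 under quantile normalization. No sign change met a called difference, and each was of an uncalled value near 0. Quantile normalization gave 0.068 for Clock and 0.036 for Tef between the genotypes in differentiated cells, 0.0099 for Per1 and 0.041 for Tef in undifferentiated cells, 0.0047 for Tef in D1D2KO differentiation, and 0.0099 for Tef and 0.019 for Csnk1d in WT differentiation. Median centring gave 0.0052 for Csnk1d in WT differentiation and 0.0079 for Tef in the difference between responses, where array weights gave -0.083 for Dbp and 0.016 for Tef. Over samples left out, differences between responses ran from -0.010 to 0.0998 for Arntl, -0.010 to 0.089 for Cry1, -0.082 to 0.052 for Dbp, -0.049 to 0.088 for Per2 and -0.031 to 0.037 for Tef. Genotype differences in differentiated cells ran from -0.086 to 0.072 for Clock, -0.026 to 0.109 for Cry2, -0.019 to 0.108 for Per2 and -0.066 to 0.0013 for Tef, and in undifferentiated cells from -0.070 to 0.0096 for Per1 and -0.041 to 0.089 for Per2. WT differentiation ran from -0.011 to 0.132 for Per3, -0.013 to 0.060 for Cipc and -0.056 to 0.053 for Csnk1d, and D1D2KO differentiation from -0.200 to 0.0018 for Fos. Background correction and slide effects were not run, since scanner files were not used here.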
